A study of Homo sapiens with 12 samples.

Results

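The synaptic vesicle release machinery was taken as 37 genes chosen by name and found by symbol in a table of 59653 gene symbols. All 37 had a row, and 35 had enough counts to be tested among the 24671 genes that passed the filter on low counts. They fall into 12 vesicle proteins, 6 calcium sensors, 7 SNAREs and regulators, 8 active zone proteins, 3 proteins of vesicle retrieval by endocytosis and 1 synuclein. The cells were human neurons made from induced pluripotent stem cells of IMR-90, an established fibroblast line, and total RNA was sequenced. The siNC group (6 libraries) had received a negative control siRNA and the siZCC group (6 libraries) an siRNA against ZCCHC17, a zinc knuckle protein that binds RNA. The sample titles also carry the term NPC, which the labels do not explain. The age of the cultures and the time after transfection are not given in the labels, all libraries come from 1 line, and nothing in the labels says whether the 6 libraries of a group were separate cultures, so p-values here measure only the spread between these libraries, which may be technical.

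A nerve terminal stores transmitter in small vesicles, which transporters fill. Tethering proteins of the active zone hold filled vesicles at the plasma membrane, and the zippering of SNARE proteins on the vesicle and on the plasma membrane fuses both membranes when a calcium sensor on the vesicle binds calcium. Complexins clamp and promote that fusion, NSF takes spent SNARE complexes apart, and dynamin and clathrin adaptors recover the membrane. In young neurons many of these genes are switched on together as synapses form, and the repressor REST keeps several of them silent in other cells.

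The siNC libraries held 90755953 to 120023356 counts and the siZCC libraries 76115083 to 105389055. ZCCHC17 itself stood between 54.0 and 61.0 counts-per-million (CPM, scaled by TMM factors for library composition) in siNC and between 9.37 and 10.6 CPM in siZCC, a log2 fold change of -2.51 (SE 0.0402). The cytokine gene IL1B split both groups, with 3 libraries of each group at 2 to 12 counts and the other 3 at 449 to 1512 counts. Neuron markers were present, MAP2 at 1027 ± 104 CPM in siNC (SD, n = 6), but the mature neuronal nuclear marker RBFOX3 was low at 1.27 ± 0.148 CPM. Progenitor and astrocyte genes were also abundant, NES at 1118 ± 58.8 CPM and GFAP at 616 ± 82.0 CPM in siNC (SD, n = 6 each), so the libraries do not hold RNA of mature neurons alone. In such bulk RNA, fewer neurons and less RNA per neuron cannot be told apart.

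Of the 35 members tested, 7 passed the threshold of 0.05 on the adjusted p of edgeR's quasi-likelihood test (Benjamini-Hochberg over all genes tested), where 22.2% of all genes tested did. CPLX1, SYT11, DNM1, VAMP1 and SYT1 were higher, 5 members where 11.4% of all genes were called higher. SLC17A6 and SYT4 were lower, 2 members where 10.8% of all genes were called lower. The share of members called is therefore close to that of all genes tested, which include many genes of low counts. Among genes with a mean count of at least 50, 7 of 34 members were called, beside 5573 of 18464 genes. That is a lower share for the members, in a list of few genes. Under upper quartile scaling the split was 3 higher and 3 lower, because SYT1 and VAMP1 lost their calls and AMPH gained one. The median log2 fold change of the tested members was -0.03, beside -0.0016 for all genes tested, and 16 of the 35 had a positive value. Changes were small: 2 of 35 members, CPLX1 and SLC17A6, had a fitted change of more than 1.2-fold in either direction, a size that 19.9% of all genes passed. In 2 members, CPLX1 and SYT11, the 6 siZCC libraries all lay above the 6 siNC libraries, where 9.74% of all genes showed such separation (5.25% higher, 4.5% lower). This count was 4 (3 higher, 1 lower) without siNC replicate 4. The share of all genes was not counted in that setting. Groups with fewer libraries separate more easily for any gene, so the 2 counts cannot be compared. Summed over the tested members, the level ran from 3047 to 3369 CPM in siNC and from 3075 to 3365 CPM in siZCC, so the total output of these genes covered the same range in both groups.

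**Figure D1:**
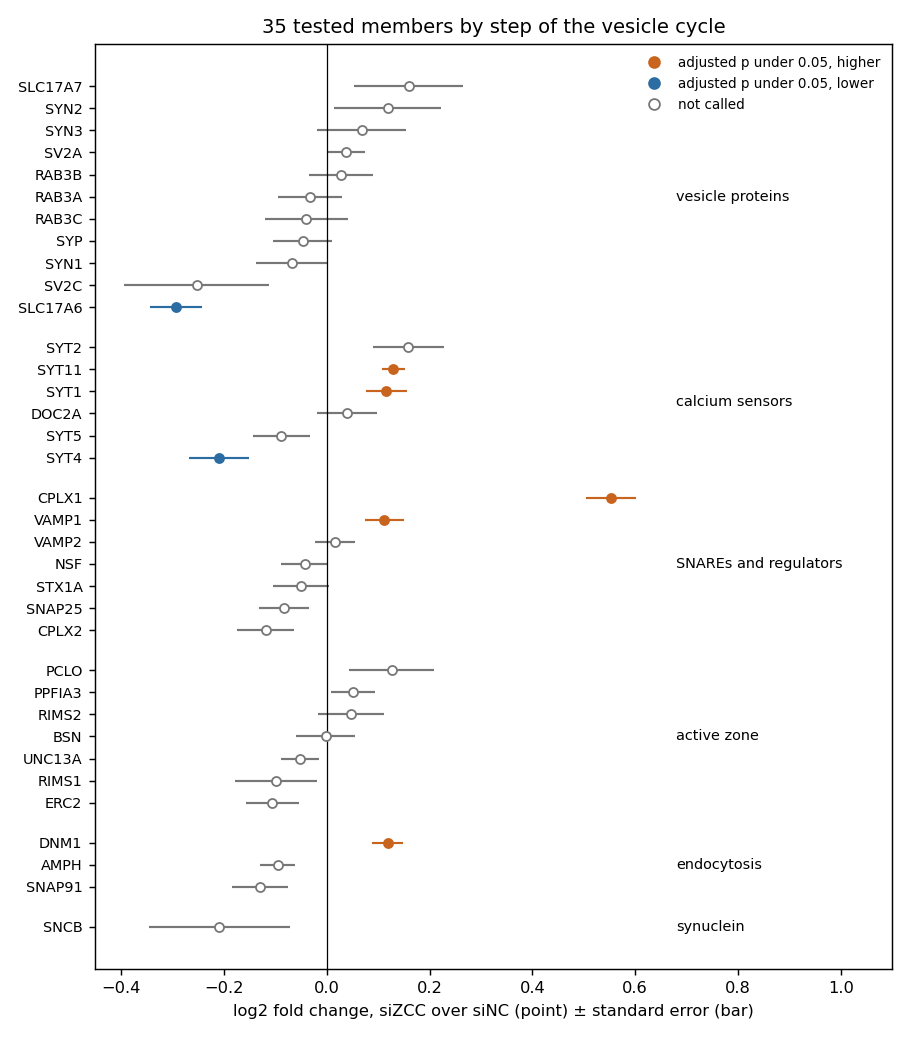
Log2 fold change of siZCC over siNC for the 35 tested members (points, horizontal axis) with standard errors (bars), grouped by step; filled points passed an adjusted p of 0.05. CPLX1 stands at 0.55, while the other members lie between -0.29 and 0.16.

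Levels between genes were compared per length, as CPM per kilobase of merged exons in the GENCODE v29 annotation of GRCh38. SYT11 was the highest of all members at 125 CPM per kilobase in siNC, followed by SV2A at 58.0, VAMP2 at 46.8, RAB3A at 46.6, SYT4 at 36.5 and SYT1 at 29.8. The plasma membrane SNARE SNAP25 stood at 27.2 and its partner STX1A at 7.65 CPM per kilobase. At the other end were SYN2 at 0.283, SLC17A7 at 0.243 and SV2C at 0.0309 CPM per kilobase. Levels within 1 family could lie far apart, as for SV2A against SV2C, while the active zone genes PPFIA3, BSN and UNC13A lay close together at 11.6, 11.4 and 10.7. SV2B and UNC13C did not pass the filter: SV2B had 1 to 11 counts per library (34 over siNC, 22 over siZCC) and UNC13C had 0 to 14 (24 and 12), with 4 libraries at 0. A count of 0 allows up to 3 counts, or at most 0.0394 CPM in the shallowest library, counting error only.

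**Figure D2:**
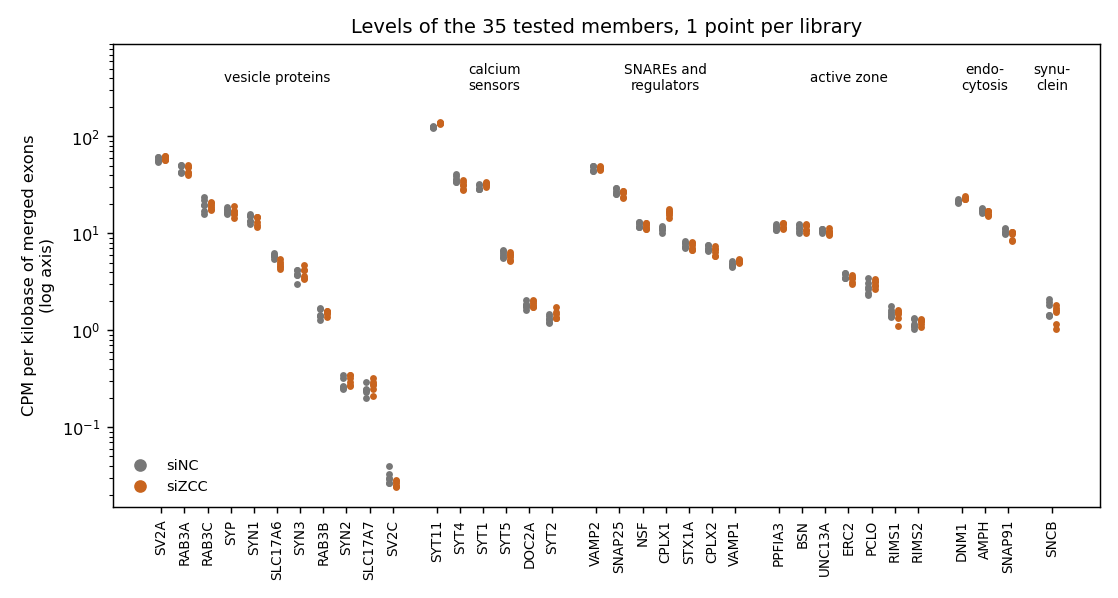
Level of each tested member in every library (1 point per library) in CPM per kilobase of merged exons, on a log axis, siNC in grey and siZCC in orange, grouped by step. SYT11 lies above all others and SV2C below all others; the groups overlap for all members but CPLX1 and SYT11.

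The SNAREs and their regulators held the largest change. CPLX1 encodes complexin 1, a small soluble protein that grips the assembled SNARE bundle,, and spans positions 784957 to 826198 of chromosome 4, minus strand (GRCh38, GENCODE v29). Its lowest, median and highest values were 24.2, 27.0 and 28.8 CPM in siNC and 35.2, 39.9 and 43.2 CPM in siZCC. The lowest siZCC library thus stood well above the highest siNC library. CPLX1 rose by 46.7% (log2 fold change 0.55, SE 0.0485, edgeR adjusted p 1.24e-06), resting on 2539 to 4256 counts per library. The rise was as large within either side of the IL1B split, at 0.55 in the high libraries and 0.56 in the low ones. CPLX2, the other complexin expressed here, had 47.0, 49.4 and 53.9 CPM in siNC and 41.0, 46.9 and 52.3 CPM in siZCC, with overlapping groups. Its log2 fold change was -0.12 (SE 0.0554, edgeR adjusted p 0.139). It was -0.02 in the high and -0.23 in the low IL1B libraries, where CPLX2 was called (edgeR adjusted p 0.0461), as it was without siZCC replicate 5 (edgeR adjusted p 0.0471). On the CPM scale CPLX2 exceeded CPLX1 in all libraries, while per kilobase CPLX1 (11.1 in siNC, 16.3 in siZCC) exceeded CPLX2 (7.09 and 6.53).

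VAMP1, a vesicle SNARE more typical of spinal cord and brainstem, had 16.2, 16.9 and 18.4 CPM in siNC and 17.8, 18.4 and 19.3 CPM in siZCC. Its log2 fold change was 0.11 (SE 0.0380, edgeR adjusted p 0.0429), close to the threshold, and the call was lost when any of 9 libraries was left out (adjusted p 0.0232 to 0.108 over the 12). Exons of TAPBPL on the opposite strand cover 9.5% of its exon length, and the labels name a directional library kit, but the strand setting of the counting is not given in the sources used here. VAMP2, the main vesicle SNARE of forebrain synapses, averaged 153 ± 9.58 CPM without the knockdown and 155 ± 5.05 CPM with it (SD, n = 6 each), with a log2 fold change of 0.02 (SE 0.0384). AC129492.3 on the same strand covers 13.2% of the exon length of VAMP2, and BUD23 on the opposite strand 17.9% of that of STX1A. SNAP25 and STX1A, which form the plasma membrane side of the complex, had log2 fold changes of -0.08 (SE 0.0492) and -0.05 (SE 0.0551). NSF, the ATPase that recycles the complex, had -0.04 (SE 0.0457). Its pseudogene NSFP1 held 0.469% to 1.12% as many counts as NSF, and how reads were divided between them is not given. These 4 SNARE and recycling genes did not pass the test, and their groups overlapped. Different splice forms of SNAP25 and VAMP1 are summed in counts per gene.

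**Figure D3:**
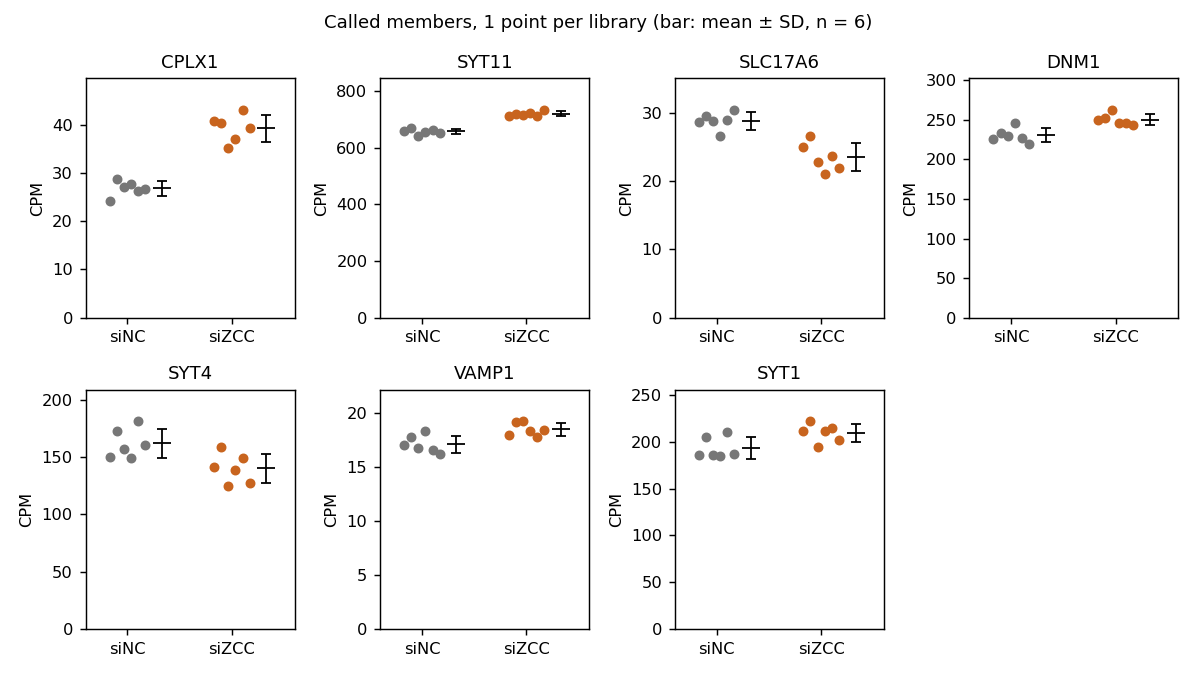
CPM of the 7 called members in every library (1 point each; bar, mean ± SD, n = 6; vertical axes start at 0), in order of p. CPLX1 and SYT11 separate fully, SLC17A6 overlaps by a single siZCC library at 26.7 against a siNC minimum of 26.5 CPM, and the other 4 overlap more.

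The step labelled calcium sensors changed in both directions. All synaptotagmin members were placed under that label, which does not mean that each acts as a calcium sensor. Of 6 genes, 2 were higher, 1 was lower and 3 were not called. That is 50% called beside 22.2% of all genes tested, in a step of few genes. SYT11, a synaptotagmin known to restrain vesicle recycling rather than to trigger fusion, spans positions 155859509 to 155885199 of chromosome 1, plus strand. It had 642, 658 and 671 CPM in siNC and 711, 717 and 735 CPM in siZCC, so the groups were narrow and did not overlap. Its log2 fold change was 0.13 (SE 0.0223, edgeR adjusted p 5.54e-04), a rise of 9.42%. Its means were 657 ± 9.88 and 719 ± 8.66 CPM (SD, n = 6 each), the smallest relative spread of the 35 members in either group; the members' median coefficients of variation were 6.83% and 8.16%. SYT1, the sensor for fast synchronous release, had 185, 187 and 211 CPM in siNC and 195, 212 and 223 CPM in siZCC. Its rise of 0.12 (SE 0.0402, edgeR adjusted p 0.0477) was likewise lost without any of 9 libraries (adjusted p 0.0131 to 0.103 over the 12).

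SYT4, whose protein sits mostly on dense-core vesicles and immature secretory granules, spans positions 43267878 to 43277650 of chromosome 18, minus strand. It had 149, 159 and 182 CPM in siNC and 125, 140 and 159 CPM in siZCC. The upper 2 siZCC libraries reached into the siNC range. SYT4 fell by 0.21 on the log2 scale (SE 0.0583, edgeR adjusted p 0.0163). SYT2, the fast sensor of hindbrain and spinal synapses, had a log2 fold change of 0.16 (SE 0.0694, adjusted p 0.115 in edgeR), with 0.32 in the high IL1B libraries (edgeR adjusted p 0.0380) and -0.02 in the low ones, and PPP1R12B on the opposite strand covers 27.2% of its exon length. SYT5 and DOC2A, a soluble sensor linked to spontaneous and asynchronous release, had -0.09 (SE 0.0555) and 0.04 (SE 0.0580) and were not called.

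The promoters of SYT11 and SYT4 are shown because these synaptotagmins moved in opposite directions. Each window runs from 250 bases before to 50 bases after a RefSeq start site (GRCh38.p14), 5′ to 3′ on the gene's strand. SYT11 is chr1:155859317-155859616 on the plus strand and SYT4 is chr18:43277441-43277740 on the minus strand. Capitals mark TGACG, the short form of the cAMP response element, or its reverse complement.
SYT11: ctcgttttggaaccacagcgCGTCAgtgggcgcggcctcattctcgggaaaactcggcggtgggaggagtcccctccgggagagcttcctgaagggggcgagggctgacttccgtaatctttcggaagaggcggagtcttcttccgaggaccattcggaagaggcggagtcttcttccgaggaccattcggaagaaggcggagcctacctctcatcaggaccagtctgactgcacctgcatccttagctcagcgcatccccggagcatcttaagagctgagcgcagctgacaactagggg
SYT4: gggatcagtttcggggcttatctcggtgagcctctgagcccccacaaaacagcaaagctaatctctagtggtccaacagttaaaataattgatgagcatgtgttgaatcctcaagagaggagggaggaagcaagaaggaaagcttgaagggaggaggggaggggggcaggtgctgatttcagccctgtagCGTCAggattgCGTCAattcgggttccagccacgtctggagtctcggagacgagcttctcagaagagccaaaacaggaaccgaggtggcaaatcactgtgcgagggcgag
TGACG was found once in the SYT11 window and as a close pair in the SYT4 window, and in 9 of the 32 members that had a window. A member counts if any of its windows holds the letters, while the share that follows is per window. Over all 35116 windows in the RefSeq table, 24.6% hold it, so a match is common and is only a description of these letters.

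Among the vesicle proteins, 1 of 11 tested was lower and 0 were higher in edgeR's test, or 9.09% beside 22.2% of all genes tested. At an unadjusted p under 0.05 the count was likewise 1 lower and 0 higher. DESeq2 and limma voom gave the same count at their adjusted thresholds. The gene called was SLC17A6, which encodes the vesicular glutamate transporter VGLUT2 and spans positions 22338097 to 22379503 of chromosome 11, plus strand. It had 26.5, 28.9 and 30.4 CPM in siNC and 21.0, 23.2 and 26.7 CPM in siZCC, so 5 of 6 siZCC libraries lay below every siNC library. SLC17A6 fell by 0.29 on the log2 scale (SE 0.0507, edgeR adjusted p 6.03e-04), or by 18.3%. SLC17A7, for the cortical transporter VGLUT1, was scarce, averaging 1.46 ± 0.172 and 1.63 ± 0.239 CPM (SD, n = 6 each), with a log2 fold change of 0.16 (SE 0.106). The coating and tethering phosphoproteins SYN1, SYN2 and SYN3, which hold vesicles in reserve, had log2 fold changes of -0.07 (SE 0.0684), 0.12 (SE 0.104) and 0.07 (SE 0.0866). SYP, the abundant vesicle membrane protein synaptophysin, averaged 89.1 ± 6.09 and 86.3 ± 8.21 CPM (SD, n = 6 each). SV2A, a vesicle glycoprotein and the binding site of the antiseizure drug levetiracetam, was at 280 ± 13.7 and 287 ± 12.4 CPM (SD, n = 6 each). The small GTPases RAB3A, RAB3B and RAB3C, which link vesicles to active zone proteins, had log2 fold changes of -0.03, 0.03 and -0.04 (SE 0.0625, 0.0625 and 0.0802). SV2C, at 24 to 56 counts per library, had -0.25 with an SE of 0.141.

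Shown for this step are the SLC17A6 window (chr11:22338131-22338430, plus strand), as the start of the vesicle gene that fell, and a stretch of the SYN1 promoter (chrX:47620065-47620094, minus strand), as the textbook site of REST. Capitals in SYN1 mark the match to the core of the REST element RE1.
SLC17A6: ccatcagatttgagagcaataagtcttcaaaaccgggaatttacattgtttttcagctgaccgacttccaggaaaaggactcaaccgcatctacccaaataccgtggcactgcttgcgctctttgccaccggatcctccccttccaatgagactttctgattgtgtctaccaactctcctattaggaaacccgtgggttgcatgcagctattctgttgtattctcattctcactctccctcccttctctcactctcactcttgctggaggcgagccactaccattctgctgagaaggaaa
SYN1: cagcttcaGCACCGCGGACAGtgccttcgc
That core was found in 0.0826% of the 35116 windows and in SYN1 alone among the 32 members searched, counting any window of a member. The SLC17A6 window held no match on either strand to it, to the full or short cAMP response element, to the E-box or to the TATA box, and its G and C content was 48.0%. SYN1, with the RE1 letters, had 47.3, 54.5 and 60.7 CPM in siNC and 44.2, 53.3 and 56.6 CPM in siZCC, which overlapped.

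At the active zone, 0 of 7 tested members were called by edgeR, beside 22.2% of all genes tested, and the step holds few genes. With all libraries, 0 also passed an unadjusted p under 0.05, DESeq2 or limma voom. The giant scaffolds BSN and PCLO had log2 fold changes of 0.00 (SE 0.0570) and 0.13 (SE 0.0826). BSN had 165, 183 and 203 CPM in siNC and 163, 185 and 201 CPM in siZCC, nearly the same range. PCLO had 52.3, 63.0 and 79.5 CPM in siNC and 61.3, 69.8 and 76.6 CPM in siZCC, the siZCC values falling inside the siNC range. PCLO gained a call without siNC replicate 5 (log2 fold change 0.20, edgeR adjusted p 0.0463), while its value was 0.08 without siNC replicate 3. UNC13A, the priming factor Munc13-1, was at 120 ± 4.49 and 116 ± 6.31 CPM (SD, n = 6 each), a log2 fold change of -0.05 (SE 0.0367). RIMS1 and RIMS2, which tether calcium channels and RAB3 vesicles, had -0.10 (SE 0.0799) and 0.05 (SE 0.0636). ERC2, a scaffold that binds them, had -0.11 (SE 0.0521), and PPFIA3, the organizer liprin-alpha-3, had 0.05 (SE 0.0431).

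For vesicle retrieval, DNM1, the neuronal dynamin that pinches vesicles off the membrane, rose. It spans positions 128191655 to 128255248 of chromosome 9, plus strand, and had 220, 228 and 246 CPM in siNC and 243, 248 and 263 CPM in siZCC. A single siNC library reached into the siZCC range. The log2 fold change was 0.12 (SE 0.0301, edgeR adjusted p 0.00913). Its 17 pseudogenes have rows of their own in the table, and how reads were divided between them and DNM1 is not given. AMPH, the membrane-bending protein amphiphysin, had -0.10 (SE 0.0346, edgeR adjusted p 0.0575), and SNAP91, the clathrin assembly protein AP180, had -0.13 (SE 0.0548, edgeR adjusted p 0.103). AMPH was called in 6 of 23 alternative settings. Among them were DESeq2, upper quartile scaling and the IL1B side as a block (edgeR adjusted p 0.0352). SNCB, beta-synuclein, a cytosolic protein of terminals, had 2.84, 3.29 and 4.19 CPM in siNC and 2.08, 3.17 and 3.63 CPM in siZCC. Its log2 fold change of -0.21 (SE 0.136) was not called, and its coefficients of variation of 17.7% and 21.1% were the highest of the members in either group. The DNM1 window (chr9:128203129-128203428, plus strand) is given as that of the retrieval gene that rose; it had 70.3% G and C and none of the searched motifs.
DNM1: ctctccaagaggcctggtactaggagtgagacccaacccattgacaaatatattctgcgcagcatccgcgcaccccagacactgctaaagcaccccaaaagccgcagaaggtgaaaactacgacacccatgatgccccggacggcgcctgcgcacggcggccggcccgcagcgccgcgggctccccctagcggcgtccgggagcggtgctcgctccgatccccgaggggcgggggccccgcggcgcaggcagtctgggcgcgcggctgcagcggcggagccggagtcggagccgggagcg

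Whether related members changed unequally was tested on their log2 ratio in each library, over 14 pairs in which both genes passed the filter (exact permutation test, two-sided, 924 assignments, smallest possible p 0.00216, adjusted over the 14 pairs). The ratio differed between the groups in 6 pairs. The pairs were chosen with earlier results of these data known, and several hold members called above in the same libraries. Their p-values are therefore not independent support for those calls. CPLX1 over CPLX2 went from -0.91 ± 0.0796 in siNC to -0.23 ± 0.110 in siZCC (SD, n = 6 each), a difference of 0.67 (SE 0.0554) with exact permutation p 0.00216, adjusted 0.0152. SYT1 over SYT4 went from 0.26 ± 0.0411 to 0.59 ± 0.0672 (SD, n = 6 each; exact permutation p 0.00216, adjusted 0.0152). In these 2 pairs the groups did not overlap. SYT1 over SYT5 shifted by 0.20 (SE 0.0526, exact permutation p 0.00433, adjusted 0.0152), although SYT5 alone was not called. SLC17A6 over SLC17A7 shifted by -0.45 (SE 0.140, exact permutation p 0.0152, adjusted 0.0354), but missed the adjusted threshold when any of 9 of the 12 libraries was left out, with its sign kept.

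For 2 further pairs the pass also depended on which libraries entered. RIMS1 over RIMS2 shifted by -0.15 (SE 0.0667, exact permutation p 0.00866, adjusted 0.0242), and SV2A over SV2C by 0.26 (SE 0.103, exact permutation p 0.00433, adjusted 0.0152). The first missed the adjusted threshold without siNC replicate 3, 4, 5 or 6 or siZCC replicate 6, where its shift was -0.10. The second missed it without siZCC replicate 5 or 6, and its shift was 0.17 without siNC replicate 6, where it still passed. In all, 3 pairs passed without siZCC replicate 6. For SYT1 over SYT11 the shift was -0.01 (SE 0.0417, exact permutation p 0.745), and for RAB3A over RAB3C it was 0.00 (SE 0.107). The other 6 pairs, SYN1 with SYN2 and SYN3, SYT1 with SYT2, VAMP2 with VAMP1, RAB3A with RAB3B, and BSN with PCLO, shifted by -0.19 to -0.04 and did not pass.

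**Figure D4:**
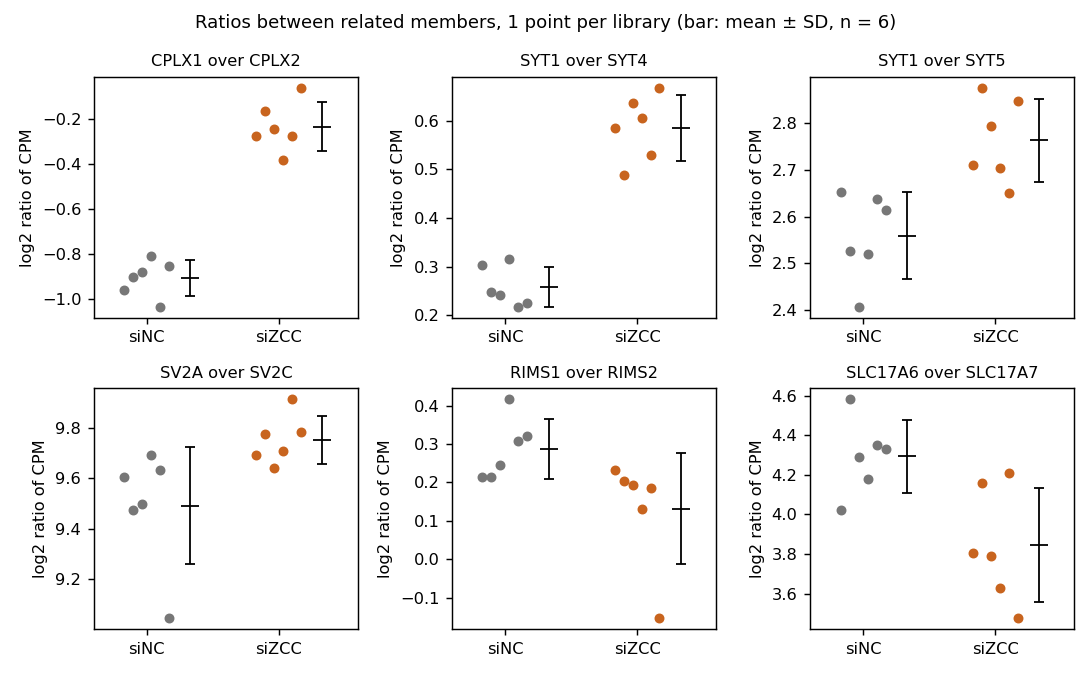
Log2 ratio of CPM between related members in every library (1 point each; bar, mean ± SD, n = 6) for the 6 pairs that passed; vertical axes do not start at 0 and differ between panels. CPLX1 over CPLX2 and SYT1 over SYT4 separate fully, while single low libraries are seen for SV2A over SV2C in siNC and RIMS1 over RIMS2 in siZCC.

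Other genes of the vesicle cycle were examined in 7 lists of 134 genes, 132 of them tested. In these lists 13 genes were higher and 19 lower in edgeR's test, or 24.2%, near the 22.2% of all genes tested. The count was 21 without siNC replicate 6 and 20 without siZCC replicate 4, against 32 with all libraries. Calls over all genes fell as well, to 4484 of 24667 and 4564 of 25090, against 5481 of 24671 with all libraries. Among 17 other vesicle membrane proteins and transporters, 1 rose and 3 fell, with a median log2 fold change of -0.07. SLC17A8, which encodes the third vesicular glutamate transporter VGLUT3, fell from 24.7 ± 1.34 to 17.2 ± 0.933 CPM (SD, n = 6 each; log2 fold change -0.53, SE 0.0436, edgeR adjusted p 7.47e-07). All 6 siZCC libraries (16.3 to 18.5 CPM) lay below all 6 siNC libraries (23.2 to 26.3 CPM). SYNPR, the synaptophysin relative synaptoporin, fell by 0.43 (SE 0.0872, edgeR adjusted p 0.00193), from 2.07 to 1.54 CPM on average. SLC32A1, the transporter for GABA and glycine, stood at 36.5 ± 1.37 and 35.99 ± 4.62 CPM (SD, n = 6 each) with a log2 fold change of -0.02, chosen here after its value was seen as the inhibitory counterpart. Whether the glutamate transporters differ from it in their change was not tested.

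Subunits of the proton pump that powers filling had 1 of 17 called, ATP6V1F, higher by 0.14 (SE 0.0395, edgeR adjusted p 0.0149), and a median of 0.04. That count was 2 when siNC replicate 2 or 3, or siZCC replicate 4 or 5, was left out, 2 by limma voom, 3 by DESeq2, and 4 with an offset for GC content and length. Calls over all genes ran from 4564 to 6425 in these fits, against 5481 in the main fit. Of 21 other SNAREs and regulators tested, 3 rose and 3 fell. PRRT2, a presynaptic membrane protein mutated in paroxysmal movement disorders, rose by 0.17 (SE 0.0393), and STX2, a syntaxin of many tissues, fell by 0.14 (SE 0.0373). This count dropped to 2 when siNC replicate 1 or 6, or siZCC replicate 1 or 4, was left out, and to 3 without siZCC replicate 5. Calls over all genes also fell in these fits, from 5481 to between 4484 and 5038. Of 17 other synaptotagmins and calcium sensors 1 rose and 4 fell. CADPS, the dense-core vesicle priming factor CAPS1, was lower by 0.23 (SE 0.0363, means 88.1 ± 4.53 and 75.2 ± 2.89 CPM, SD, n = 6 each). CALM2, 1 of 3 calmodulin genes, was lower by 0.13 (SE 0.0310). These are 2 of the genes in that list. Only 2 of the 17 were called without siZCC replicate 4, and 3 with no filter on low counts, where calls over all genes were 4564 and 4785. Of 23 other active zone genes 1 rose and 4 fell, with ERC1 lower by 0.18 (SE 0.0282) and PPFIA4, at 3.28 to 4.08 CPM on average, higher by 0.32 (SE 0.0657). The edgeR adjusted p of PRRT2, STX2, CADPS, CALM2, ERC1 and PPFIA4 ran from 2.90e-04 for CADPS to 0.0120 for STX2. The share called was 5.88% of proton pump subunits and 28.6% of other SNAREs and regulators. It was 29.4% of other synaptotagmins and calcium sensors and 21.7% of other active zone genes, beside 22.2% of all genes tested.

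Of 27 other endocytic genes, 6 were higher and 2 lower, or 29.6% against the 22.2% of all genes tested, with a median of 0.03. STON2, a stonin adaptor that sorts synaptotagmin, and its relative STON1 moved in opposite directions. STON2 changed by 0.36 (SE 0.0687, edgeR adjusted p 0.00131) and STON1 by -0.29 (SE 0.0697, edgeR adjusted p 0.00637). The count of 8 became 4 when siNC replicate 6, or siZCC replicate 1 or 4, was left out or when no filter was used, and 5 when siNC replicate 1 or 4, or siZCC replicate 5, was left out. Calls over all genes also fell in these fits, from 5481 to between 4484 and 5038. Dense-core vesicle genes had 0 of 10 higher and 3 lower in edgeR's test, with a median of -0.12. That is 30% called beside 22.2% of all genes tested. At an unadjusted p under 0.05 there were 0 higher and 5 lower, and DESeq2 and limma voom each gave 0 higher and 3 lower. The granins SCG3 and SCG2 fell by 0.14 (SE 0.0320) and 0.12 (SE 0.0324), with edgeR adjusted p of 0.00396 and 0.0153.

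**Figure D5:**
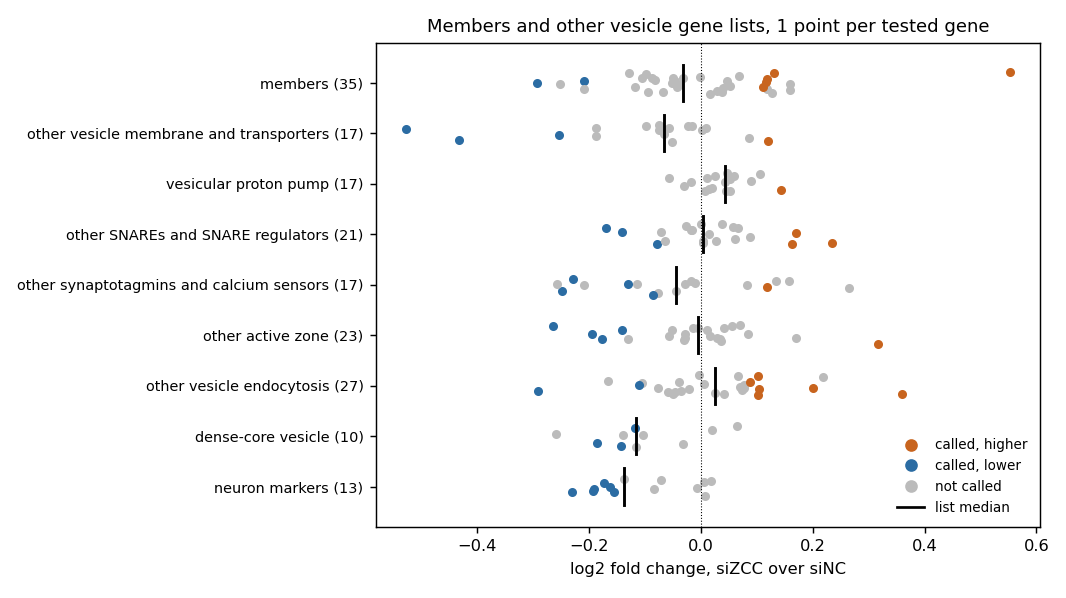
Log2 fold change of siZCC over siNC for each tested gene of the members, the 7 other vesicle lists and the neuron markers (1 point per gene; number tested in parentheses; black bar, median; vertical scatter is random). Points spread to both sides of 0 in all vesicle lists, and the neuron marker median lies lowest, at -0.14.

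Markers of cell types moved beside these results. The share called was 46.2% of neuron, 60% of progenitor, 50% of astrocyte and 62.5% of fibroblast and smooth muscle markers. It was 40% of endothelial, 20% of oligodendrocyte lineage and 16.7% of inhibitory neuron markers, and 0% of microglia and endocrine markers. Of all genes tested, 22.2% were called (11.4% higher, 10.8% lower). Each list holds few genes. Of 13 neuron markers, 0 were higher and 6 lower in edgeR's test (0 and 7 at an unadjusted p under 0.05; 0 and 6 by DESeq2 and by limma voom), and their summed level ran from 4653 to 5262 CPM in siNC and from 4266 to 4858 CPM in siZCC. Progenitor markers had 3 of 10 higher and 3 lower (6208 to 6546 CPM summed in siNC, 6109 to 6624 CPM in siZCC), and astrocyte markers 3 of 8 higher and 1 lower (1640 to 1865 and 1702 to 2024 CPM). Fibroblast and smooth muscle markers had 1 of 8 higher and 4 lower (473 to 815 and 358 to 563 CPM). Inhibitory neuron markers had 1 of 6 higher and 0 lower (354 to 396 and 372 to 412 CPM). Endothelial markers had 0 of 5 higher and 2 lower in edgeR's test, as at an unadjusted p under 0.05, by DESeq2 and by limma voom, and their summed level did not overlap between the groups (12.4 to 17.5 CPM in siNC, 8.55 to 10.6 CPM in siZCC). The 2 were TEK at -0.75 (SE 0.113) and CLDN5 at -0.64 (SE 0.0867), named after their values were seen. Another 2 of the 5 tested had a positive log2 fold change, at most 0.37, and were not called. Not every tested marker of the list thus fell, while the list median was -0.15. CDH5 did not pass the filter and was not tested. Microglia markers summed to at most 2.35 CPM in any library, endocrine markers to at most 0.496 CPM and oligodendrocyte lineage markers to between 147 and 184 CPM, with the defining genes MOG and MAG at 0 counts in 4 and 9 of the 12 libraries. The part of cell composition in the changes of SLC17A6, SYT4 and the rising members was not tested.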

How the data were processed

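RNA of 12 libraries (6 siNC, 6 siZCC; groups and replicate numbers from the sample titles) was counted per gene symbol. Per the submitters' processing notes, bcl2fastq 2.17, STAR 2.7.6a and featureCounts 2.0.1 were named, with build GRCh38; the annotation, strand setting and treatment of reads with several matches are not given in the sources used here. The authors deposited whole-number counts, with no normalization.

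Counts were analysed in R 4.3.3 with edgeR 4.0.16: filterByExpr defaults (about 0.0997 CPM), TMM factors, glmQLFit and glmQLFTest over all 12 libraries, Benjamini-Hochberg adjustment over all genes tested, threshold 0.05. Standard errors were derived from the F statistic. Log2 ratios used a prior count of 2. Lengths and positions came from GENCODE v29 (92.2% of symbols matched) and promoter windows from RefSeq (32 of 37 members matched). Alternatives used DESeq2 1.42.0 and limma 3.58.1; a GC offset and the IL1B split were added after seeing the data. The test was checked on simulated counts. Libraries held 76115083 to 120023356 counts, and the biological coefficient of variation between them was 6.55%. The members, lists and pairs were chosen with earlier results of these data known; named genes are all 37 members and, in each other vesicle list, the 2 with the smallest p among those called. Figures were drawn with matplotlib 3.10.9. Splicing and protein were not analysed here.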

Additional observations from a re-analysis of the deposited data

Results flagged for a closer look

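Single libraries far from the rest of their group were sought in the 35 tested members, the 14 ratios, ZCCHC17 and the library total, 102 groups of 6 in all. In 7 groups an end library was separated from its neighbour by more than 0.625 of the whole range; chance gives about 5.1 such groups. SYN3 was lowest in siNC replicate 3, at 4.02 in log2 CPM against 4.34 to 4.51 in the other 5. The same library was therefore highest for SYN1 over SYN3, at a log2 ratio of 1.83 against 1.22 to 1.42. In siZCC replicate 4 that ratio was lowest, at 1.12 against 1.26 to 1.34. RIMS1 over RIMS2 was lowest in siZCC replicate 6, at -0.15 against 0.13 to 0.23. BSN over PCLO was lowest in siZCC replicate 2, at 1.19 against 1.41 to 1.53. SV2A over SV2C was lowest in siNC replicate 6, at 9.05 against 9.48 to 9.69, with SV2C at few counts. Sequencing of siNC replicate 4 was shallowest in its group, with 90755953 counts where the other 5 had 109973707 to 120023356.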

How the results depend on the processing

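ZCCHC17, CPLX1, SLC17A8, CADPS and STON2 kept their direction and call in all 23 alternatives; SYT11 lost its call only in the high IL1B libraries (0.13, adjusted p 0.0558), SLC17A6 and SYT4 only in the low ones (-0.24, 0.0745; -0.23, 0.184), and DNM1 in both (0.12 each); these fits hold 3 libraries per group. The member count of 7 lay between 5 and 8 in the other settings, where all genes called ran from 4484 to 6425. It was 4 of 35 in the high and 3 of 35 in the low IL1B libraries. There, all genes called numbered 2043 of 24925 and 1602 of 24824, and the other vesicle genes 9 and 8. Over fits without 1 library, all genes called numbered 4484 to 5626, the other vesicle genes 20 to 36, and pairs passing 3 to 7. Separated members numbered 2 to 4 there, with the share of all genes not counted. SYT1 and VAMP1 lost their calls under upper quartile scaling (adjusted p 0.0650 and 0.0599) and with no filter (0.0663 and 0.110). With the IL1B side as a block SYT1 was lost (0.0503) and AMPH gained (0.0352). The cause was not tested, except that fewer samples entered some fits.

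Some uncalled members changed sign, with no call in the fits where they did. In the high IL1B libraries SYN1 was at 0.022, SYP 0.023, RAB3A 0.030, STX1A 0.029, RIMS1 0.0078, UNC13A 0.0013 and BSN 0.11. In the low ones SYN3 was at -0.15, SV2A -0.018, SYT2 -0.016, DOC2A -0.030 and PPFIA3 -0.018. Without 1 library VAMP2 ran from -0.0015 to 0.034, RAB3B from -0.0089 to 0.074, RAB3C from -0.094 to 0.022 and BSN from -0.032 to 0.029. RAB3A over RAB3C ran from -0.057 to 0.061, SYT1 over SYT11 from -0.031 to 0.0096 and SYT1 over SYT2 from -0.080 to 0.0023.

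Libraries that carry the same number showed no pairing: the correlation of their deviations from the group means was -0.08 to 0.02, and none matched its own number best. With the replicate block 4902 genes and 7 members were called, VAMP1 lost (adjusted p 0.0590) and SYT2 gained (0.0431), and endocytic genes numbered 5. With the block 0 of 14 pairs passed (lowest adjusted p 0.0875). CPLX1 over CPLX2, SYT1 over SYT4, SYT1 over SYT5, SV2A over SV2C and SLC17A6 over SLC17A7 shared that lowest value. Swapping groups only within a replicate number allows far fewer assignments than the unblocked test, so the smallest possible p is larger. A pass was therefore hard to reach, and whether the ratios differ under the block cannot be decided from this test.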
